A study of Homo sapiens with 4 samples.

Results

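RELN, the gene of the secreted glycoprotein reelin, was examined together with VLDLR and LRP8, the genes of its lipoprotein receptors, and DAB1, the gene of the adaptor that carries the signal from those receptors into the cell. These 4 genes were taken by symbol from the 53777 Ensembl genes of the table, and all 4 were found in it. RELN was chosen by its measured FPKM, for its large drop in the MYC knockdown, so its values are a description with no test. The other 3 genes had been taken for their place in the pathway. RNA was sequenced from NUGC3, an established human stomach cancer cell line, in 2 libraries of cells with a MYC knockdown (MYC_KD) and 2 libraries of wild-type cells. MYC is a transcription factor that drives growth. How the knockdown was made, whether the knockdown cells are 1 clone, and any treatment or control vector are not stated in the labels. Separate cultures are not recorded for the replicates either, so each p-value reflects the spread between these libraries, which may be technical.

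Reelin is best known from the developing cerebral cortex, where Cajal-Retzius neurons secrete it and migrating neurons respond. It binds the receptors VLDLR and LRP8 (also called ApoER2), and the kinases FYN and SRC then phosphorylate DAB1 on tyrosines. Phosphorylated DAB1 recruits CRK and CRKL, PI3 kinase and NCK proteins, and is afterwards degraded through CUL5 and SOCS7. Outside the brain, reelin is also made by lymphatic endothelium and hepatic stellate cells, and silencing of RELN by promoter methylation has been described in gastric cancer.

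RELN (ENSG00000189056) lies on the minus strand of chromosome 7, from 103471784 to 103989516 in GENCODE 29 on GRCh38, and its longest coding transcript has 65 exons and 11571 bases. LRP8 (ENSG00000157193) lies on the minus strand of chromosome 1 from 53242364 to 53328070, and VLDLR (ENSG00000147852) on the plus strand of chromosome 9 from 2621834 to 2660053. DAB1 (ENSG00000173406) lies on the minus strand of chromosome 1 from 56994778 to 58546734. The labels do not state the build of the deposited table, so these coordinates are those of the annotation. The 250 bases before the RefSeq start (GRCh38.p14) are printed for RELN and for both receptor genes, because MYC with its partner MAX binds the E-box CACGTG and because the 3 genes can be compared there. They lie at chr7:103989659-103989908 (minus strand) for RELN, chr1:53328071-53328320 (minus strand) for LRP8 and chr9:2621537-2621786 (plus strand) for VLDLR. Each is written 5′ to 3′ in the direction of the gene, and capitals mark CACGTG and the GC box GGGCGG or its reverse complement CCGCCC.
RELN: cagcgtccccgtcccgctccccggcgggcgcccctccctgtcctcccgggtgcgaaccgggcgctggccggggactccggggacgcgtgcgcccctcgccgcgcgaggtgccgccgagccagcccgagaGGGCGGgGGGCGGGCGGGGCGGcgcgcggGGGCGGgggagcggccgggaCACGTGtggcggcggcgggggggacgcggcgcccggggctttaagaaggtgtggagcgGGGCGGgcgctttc
LRP8: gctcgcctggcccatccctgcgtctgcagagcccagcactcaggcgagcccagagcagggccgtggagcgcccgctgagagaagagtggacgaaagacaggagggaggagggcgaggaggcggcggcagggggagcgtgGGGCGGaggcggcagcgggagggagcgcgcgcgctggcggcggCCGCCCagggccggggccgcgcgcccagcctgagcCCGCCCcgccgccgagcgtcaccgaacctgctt
VLDLR: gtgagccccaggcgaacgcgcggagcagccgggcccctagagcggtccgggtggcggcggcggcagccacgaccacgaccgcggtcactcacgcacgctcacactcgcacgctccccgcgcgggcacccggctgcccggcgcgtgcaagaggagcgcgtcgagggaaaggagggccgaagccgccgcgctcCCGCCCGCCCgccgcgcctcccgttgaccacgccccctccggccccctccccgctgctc

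The RELN window held 1 CACGTG, whose first base lay 72 bases before the start. The LRP8 and VLDLR windows held 0. The motif reads alike on both strands, and 6.34% of all 35116 RefSeq windows of this length held it. Among the 3555 windows with at least 75% G and C, as the printed ones have, 8.3% held the motif. Of the 6 windows of DAB1, 1 held it. GGGCGG was found on either strand 6 times in the RELN window, where some of the matches overlap, 3 times in the LRP8 window and 2 times in the VLDLR window, and 42.64% of all windows held at least 1. The RELN, LRP8 and VLDLR windows were 83.2%, 77.2% and 78.8% G and C, against a median of 58.0% over all windows. A match describes these letters and shows no binding.

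The values are read as FPKM, a level of fragments corrected for gene length and library size. The unit is not named with the values and was inferred from their column totals, which vary. The target MYC had 65.0 and 75.8 FPKM in the knockdown and 82.9 and 82.0 FPKM in wild type. Both knockdown values were below both wild-type values, as in 25.2% of all genes tested. The log2 change of −0.23 missed the threshold of 0.05 (limma adjusted p = 0.237). The 2 knockdown libraries lay farther apart than the wild-type libraries, with a median absolute log2 difference of 0.20 in the knockdown pair and 0.08 in the wild-type pair. MYC knockdown replicate 1 stood apart by its interferon-stimulated genes, 12 of which summed to 1167 FPKM there, 123 FPKM in MYC knockdown replicate 2, and 123 and 115 FPKM in the wild-type replicates. Steps in the low values, if each is 1 fragment, put the depth at about 21400000 and 22000000 fragments in the knockdown libraries and 29800000 and 22800000 fragments in the wild-type libraries. The 7 epithelial markers summed to 7230 and 6515 FPKM in the knockdown libraries and 6117 and 6164 FPKM in the wild-type libraries, most of it keratins. Of the 7, 5 were higher and 1 lower with no overlap, against 33.4% and 25.2% of all genes tested. The lower one was EPCAM, at 181 and 197 FPKM in the knockdown and 210 and 209 FPKM in wild type. Of 7 fibroblast and stellate markers, COL1A2, COL3A1 and DCN were listed at 0 in all 4 libraries, as were 2 of the 5 matched endothelial markers (PDPN and VWF) and the immune marker PTPRC. The fibroblast and stellate markers summed to 10.6 and 5.13 FPKM in the knockdown and 7.42 and 6.99 FPKM in wild type, most of it COL1A1. The 5 immune markers summed to 22.1 and 22.8 FPKM in the knockdown and 13.3 and 17.9 FPKM in wild type, most of it CD68, a lysosomal protein also made outside the immune system. The endothelial markers summed to 0.04 and 0.19 FPKM in the knockdown and 0.23 and 0.19 FPKM in wild type.

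RELN was low in both MYC knockdown libraries and moderate in wild type. In bulk RNA, fewer cells that express a gene and less RNA per cell cannot be told apart. Its level was 2.16 and 1.12 FPKM in replicates 1 and 2 of the knockdown, against 10.8 and 11.2 FPKM in wild type. The groups did not overlap, and the knockdown mean of 1.64 ± 0.735 FPKM was 14.9% of the wild-type mean of 10.995 ± 0.332 FPKM (SD, n = 2 per group). By library, RELN reached 19.7% of the wild-type mean in the first knockdown replicate and 10.2% in the other. The knockdown libraries thus differed from each other by a factor of 1.93 and the wild-type libraries by a factor of 1.04. At the depths given above and the length of the longest coding transcript, the levels correspond to about 521 and 278 fragments in the knockdown libraries and 3620 and 2890 in the wild-type libraries. The knockdown values thus rest on fewer fragments than the wild-type values, though on many more than those of VLDLR below.

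On the log2(FPKM + 1) scale the change of RELN was −2.21, with −1.92 for MYC knockdown replicate 1 and −2.50 for MYC knockdown replicate 2. RELN was thus low in each of them, and lowest in the library whose interferon-stimulated genes were near wild type. A relation of RELN to the interferon-stimulated genes was not tested. With 0.1 in place of 1 added to the FPKM, the change was −2.74. Among 9586 genes with a mean of at least 5 FPKM, RELN had the third lowest log2 change, rank 3 with either constant. Among all 12953 genes tested it ranked 7 with 1 added and 30 with 0.1 added, since genes near 0 FPKM move past it with the smaller constant. In wild type, 46.0% of the genes tested had a lower mean FPKM than RELN. In the knockdown, 7.63% did.

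**Figure D1:**
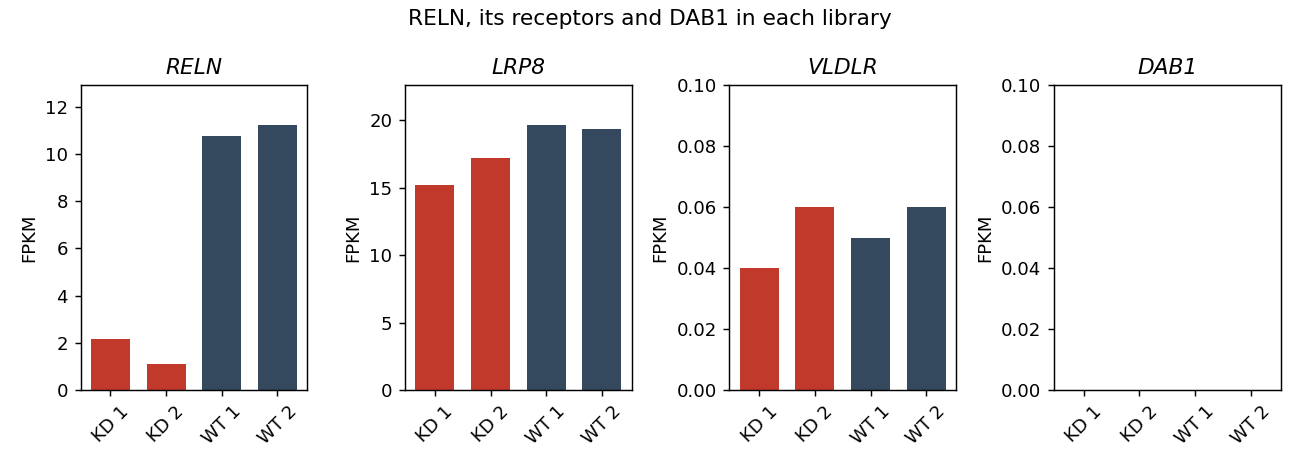
FPKM (vertical axis, a separate scale in each panel) of RELN, LRP8, VLDLR and DAB1 in each library, with MYC knockdown libraries in red (KD 1 and KD 2) and wild-type libraries in dark blue (WT 1 and WT 2). RELN stood at 2.16 and 1.12 FPKM in the knockdown and at 10.8 and 11.2 FPKM in wild type, VLDLR stayed at or below 0.06 FPKM, and DAB1 was listed at 0.

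LRP8, the receptor also known as ApoER2, was the reelin receptor with a measurable level. Its level was 15.2 and 17.2 FPKM in the MYC knockdown, against 19.7 and 19.3 FPKM in wild type. The groups did not overlap, and their closest values were 2.1 FPKM apart. The knockdown mean of 16.2 ± 1.41 FPKM was 83.2% of the wild-type mean of 19.5 ± 0.240 FPKM (SD, n = 2 per group). The log2 change of −0.25 (standard error 0.10) did not reach the threshold of 0.05 (limma adjusted p = 0.211). Over the alternatives that kept all 4 libraries, the limma adjusted p ranged from 0.187 to 0.386. At 0.05 limma called 0 of the 12953 genes tested, a percent called of 0, and 3354 genes had an unadjusted p under 0.05. Lower knockdown values with no overlap were seen in 25.2% of all genes tested, so this order alone does not set LRP8 apart. With MYC knockdown replicate 2 left out, LRP8 had −0.34, in a fit whose spread rests on the wild-type pair. It had −0.17 with MYC knockdown replicate 1 left out and −0.16 with equal column sums.

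VLDLR, the very low density lipoprotein receptor, was near the lowest level the table can hold. It was listed at 0.04 and 0.06 FPKM in the knockdown and 0.05 and 0.06 FPKM in wild type. The groups overlapped, and the values span a few steps of the 2 decimals to which the table is rounded. Under the same assumption on steps, they correspond to about 7.6 and 11.7 fragments in the knockdown and 13.2 and 12.1 fragments in wild type. VLDLR did not reach 1 FPKM in any library, so it did not enter the test, and a difference was not detectable at this depth. DAB1, the adaptor that binds the cytoplasmic tails of both receptors, was listed at 0 in all 4 libraries. Thus 2 of the 4 genes, RELN and LRP8, passed the filter of at least 1 FPKM in at least 2 libraries.

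The ratio of receptor to ligand RNA can be read from RELN and LRP8 because FPKM is a level per length. LRP8 had 7.06 and 15.4 times the FPKM of RELN in the knockdown and 1.83 and 1.72 times in wild type. Most of that difference lies in RELN, which is the value the gene was picked for. None of the Ensembl genes annotated on top of RELN, LRP8 or VLDLR had a value above 0, among them the antisense RNAs VLDLR-AS1 and AC005064.1. The 291033 entries outside the Ensembl genes were not searched for overlap. OMA1, a mitochondrial protease gene that overlaps DAB1 on the same strand, stood at 4.66 and 4.72 FPKM in the knockdown and 6.95 and 4.62 FPKM in wild type.

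RELN was then set beside its neighbours on chromosome 7, the 4 nearest protein-coding genes on each side. ORC5, a subunit of the origin recognition complex and the nearest on the upstream side, had 10.9 and 10.2 FPKM in the knockdown and 12.0 and 12.2 FPKM in wild type. Its log2 change was −0.19 (limma adjusted p = 0.290). PSMC2, a proteasome ATPase, stood at 118 and 106 FPKM in the knockdown and 103 and 103 FPKM in wild type, a log2 change of 0.12 (limma adjusted p = 0.415). DNAJC2, a ribosome-associated chaperone, had a log2 change of −0.18 (limma adjusted p = 0.386). PMPCB, a subunit of the mitochondrial processing peptidase, KMT2E, a chromatin regulator, and SRPK2, a kinase of splicing factors, had log2 changes of 0.03, 0.05 and −0.0009. SLC26A5, the gene of prestin and the nearest of all at 25.6 kb, was at or below 0.12 FPKM, and LHFPL3 was listed at 0. Of the 6 neighbours that passed the filter, 2 were higher and 2 lower with no overlap, and 0 passed 0.05. Over all genes tested, 33.4% were higher and 25.2% lower with no overlap.

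**Figure D2:**
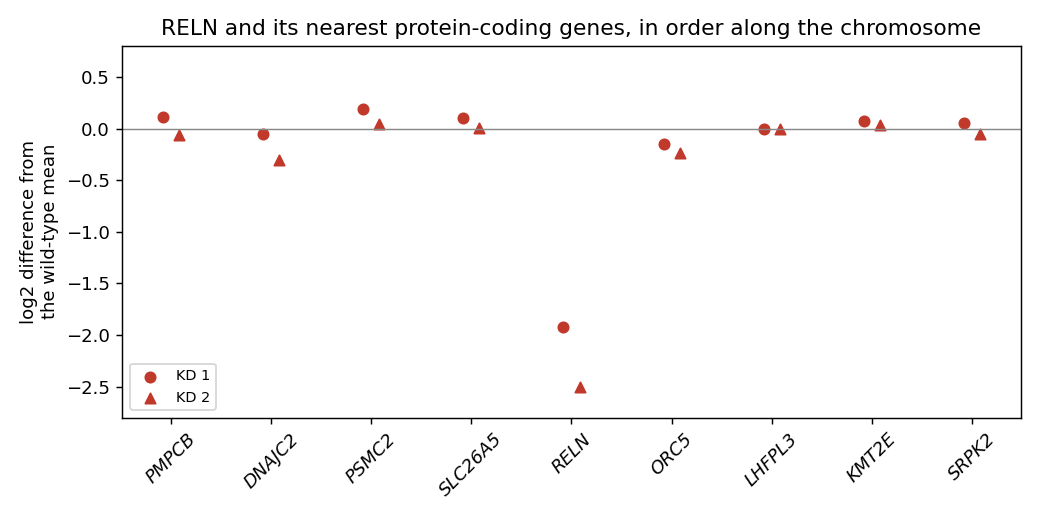
Log2 difference of each MYC knockdown library (circle, KD 1; triangle, KD 2) from the wild-type mean on the log2(FPKM + 1) scale, for RELN and the 4 nearest protein-coding genes on each side, in chromosome order. RELN lies at −1.92 and −2.50, and the 8 neighbours lie between −0.30 and 0.19.

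The genes whose profile over the 4 libraries was nearest to that of RELN were taken by the Euclidean distance between log2(FPKM + 1) values, each gene centred on its own mean, among 9584 genes with a mean of at least 5 FPKM. PLAC8, a small cysteine-rich protein, was nearest at a distance of 0.25. It stood at 29.9 and 19.8 FPKM in the knockdown and at 140 and 136 FPKM in wild type. EBI3, a cytokine subunit, followed at 0.34 with 4.53 and 3.58 FPKM in the knockdown and 18.2 and 18.6 FPKM in wild type. EGR1, an immediate early transcription factor, at 0.38, ZNF571 and ZNF345, zinc finger proteins, at 0.52 and 0.67, and COL4A1, a basement membrane collagen, at 0.70, completed the 6. In all 6 the lowest level was in MYC knockdown replicate 2, as for RELN. This likeness rests on 4 libraries in 2 groups. With each gene centred on its own mean, it selects genes with a similar fall in the knockdown, whatever their level.

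**Figure D3:**
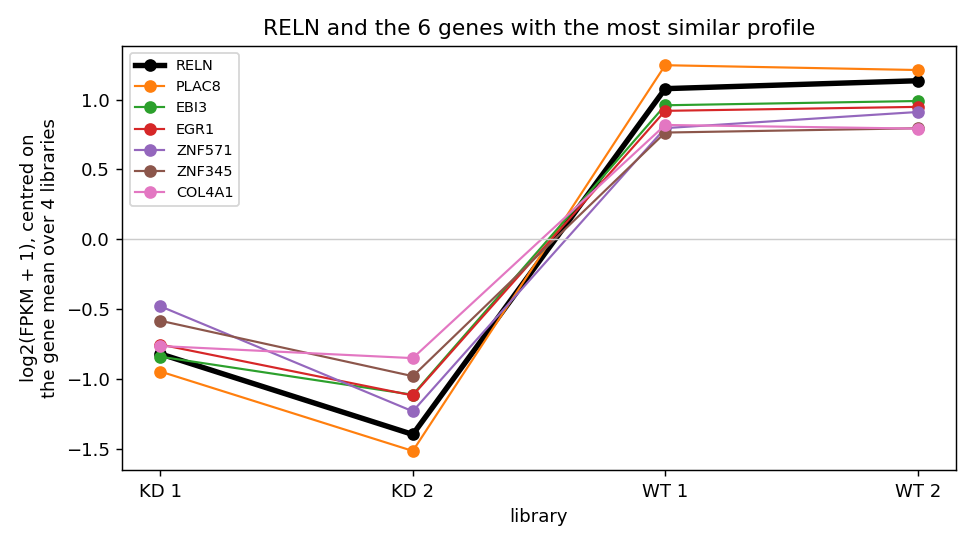
Log2(FPKM + 1) of RELN (thick black line) and of the 6 genes nearest to it, each centred on its own mean over the 4 libraries (KD, MYC knockdown; WT, wild type; 1 and 2, replicates). All 7 lines are low in both knockdown libraries, lower in KD 2 than in KD 1, and high and level in wild type.

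Among related lipoprotein receptor genes, LRP8 was in the upper part of the order and VLDLR near its end. By wild-type mean the order was LRP10, LRP12, LRP8, LRP5, LRP11, SORL1, LRP3, LRP6, LRP1, LRP4, VLDLR, LRP2 and LRP1B. LRP8 and LRP5 overlapped in wild type, at 19.3 to 19.7 FPKM for LRP8 and 18.5 to 19.6 FPKM for LRP5, a receptor of Wnt signalling. In the knockdown LRP12 lay just above LRP8, at 17.9 and 19.7 FPKM. LRP11 stood at 25.4 and 27.7 FPKM in the knockdown and 18.2 and 17.4 FPKM in wild type, a log2 change of 0.55 (limma adjusted p = 0.0650), and LRP1, a large endocytic receptor, had a log2 change of 0.53 (limma adjusted p = 0.141). LRP3 had a log2 change of 0.20 (limma adjusted p = 0.302), or 0.13 without MYC knockdown replicate 1. Of 8 members that passed the filter besides LRP8, 4 were higher and 2 lower with no overlap, against 33.4% higher and 25.2% lower over all genes tested, and 0 passed 0.05.

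**Figure D4:**
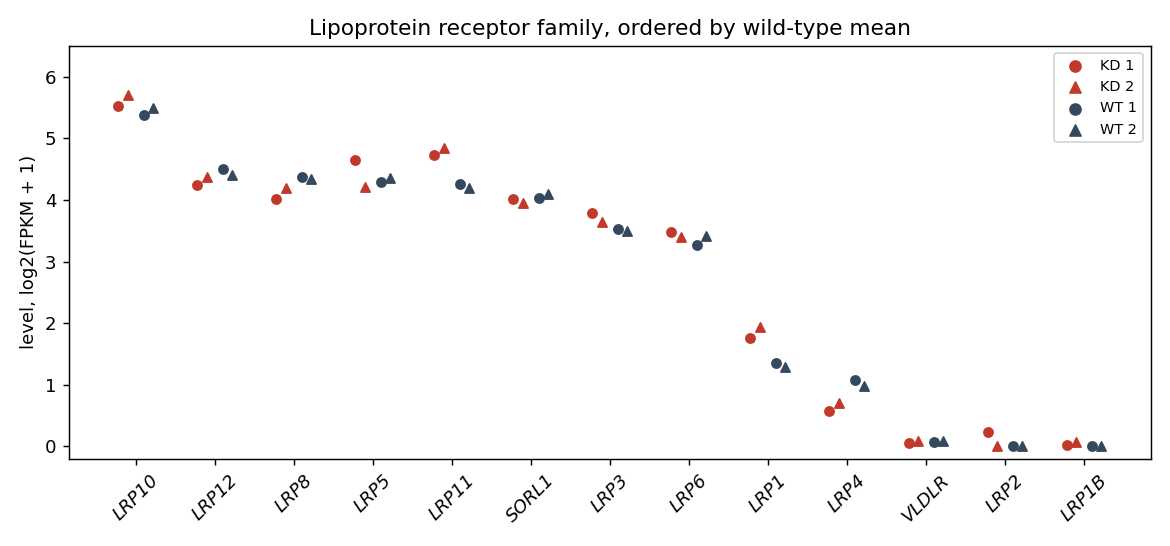
Level, as log2(FPKM + 1), of 13 lipoprotein receptor genes in each library (red, MYC knockdown; dark blue, wild type; circle, replicate 1; triangle, replicate 2), ordered by wild-type mean. LRP8 lies at 15.2 to 17.2 FPKM in the knockdown and 19.3 to 19.7 FPKM in wild type, and VLDLR lies near 0 in all 4 libraries.

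None of the other ligands of the reelin receptors passed 0.05. THBS1, thrombospondin 1, which binds both receptors, stood at 124.5 and 234.9 FPKM in the knockdown and at 86.6 and 82.6 FPKM in wild type. Both knockdown values were above both wild-type values, and the higher of them was in MYC knockdown replicate 2, where RELN was lowest. Its log2 change of 1.01 did not pass (limma adjusted p = 0.139) and was 0.55 without MYC knockdown replicate 2. TFPI, tissue factor pathway inhibitor, had a log2 change of 0.29 (limma adjusted p = 0.226), or 0.18 without wild type replicate 2. CLU, the secreted chaperone clusterin, overlapped between the groups at 6.42 and 2.70 FPKM in the knockdown and 5.64 and 4.66 FPKM in wild type. Its log2 change of −0.23 (limma adjusted p = 0.731) was −0.73 without MYC knockdown replicate 1 and 0.28 without MYC knockdown replicate 2. APOE, LPL, F11 and SELENOP did not pass the filter. Of the 4 that did, 2 were higher and 0 lower with no overlap, against 33.4% and 25.2% of all genes tested, and the median log2 change was 0.14, against 0.04.

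Of 10 proteases and inhibitors listed for their action on reelin, 4 passed the filter, and all 4 were higher in both knockdown libraries, against 33.4% of all genes tested. The ADAMTS proteases known to cut reelin, ADAMTS2, ADAMTS3, ADAMTS4 and ADAMTS5, were at or below 0.05 FPKM, and 3 of them were listed at 0. PLAT, tissue plasminogen activator, stood at 217 and 345.8 FPKM in the knockdown and 174 and 175 FPKM in wild type, a log2 change of 0.65 (limma adjusted p = 0.176). SERPINE2, an inhibitor of serine proteases including PLAT, and TIMP3, an inhibitor of metalloproteinases, had log2 changes of 0.70 and 0.73 (limma adjusted p = 0.254 and 0.247). Without MYC knockdown replicate 2 the log2 changes of PLAT, SERPINE2 and TIMP3 were 0.31, 0.22 and 0.24. FURIN, a proprotein convertase, had the smallest change of these, 0.32 (limma adjusted p = 0.110). The median of the 4 was 0.67, against 0.04 over all genes tested. It was 0.26 without MYC knockdown replicate 2 and 1.08 without MYC knockdown replicate 1, so its size rests mostly on MYC knockdown replicate 2.

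Co-receptors and proteins that handle the receptors lay mostly above wild type. Of 15 that passed the filter, 12 were higher and 0 lower with no overlap, against 33.4% and 25.2% over all genes tested, and the median log2 change was 0.22, against 0.04. ITGB1, the integrin beta 1 chain, stood at 437.7 and 569.6 FPKM in the knockdown and 324.7 and 319.1 FPKM in wild type, a log2 change of 0.63 (limma adjusted p = 0.0914), and its partner ITGA3 had 0.39 (limma adjusted p = 0.191), or 0.19 without MYC knockdown replicate 2. EFNB2, an ephrin B ligand, had a log2 change of 0.73 (limma adjusted p = 0.124), or 0.44 without MYC knockdown replicate 2. NR1H3, the sterol-sensing receptor LXR alpha, stood at 8.72 and 6.01 FPKM in the knockdown and 3.67 and 3.05 FPKM in wild type, a log2 change of 0.92 (limma adjusted p = 0.0910). MYLIP, the LXR-induced ubiquitin ligase that marks VLDLR and LRP8 for degradation, had 0.22 (limma adjusted p = 0.349), or 0.11 without MYC knockdown replicate 2. None of the 15 passed 0.05, and at an adjusted p under 0.10 there were 4, all higher, where 5.5% of all genes tested were called higher.

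Most genes listed for signalling at or below DAB1 were expressed although DAB1 was listed at 0, and they went in both directions. The list holds FYN and SRC, which phosphorylate DAB1, so its counts and median are not of genes below DAB1 alone. Of 28 that passed the filter, 13 were higher and 7 lower with no overlap, against 33.4% and 25.2% of all genes tested. None of them passed 0.05, and the median log2 change was 0.0001, against 0.04. At an adjusted p under 0.10, 1 was higher and 2 were lower, where 5.5% and 4.91% of all genes tested were called in these directions. FYN, the Src family kinase named above, stood at 24.0 and 22.9 FPKM in the knockdown and at 37.4 and 31.4 FPKM in wild type, a log2 change of −0.53 (limma adjusted p = 0.0877). SRC stood at 27.6 and 25.9 FPKM in the knockdown and 25.5 and 24.2 FPKM in wild type (limma adjusted p = 0.513). CDK5R1, the activator p35 of the kinase CDK5, had a log2 change of −0.54 (limma adjusted p = 0.211), or −0.29 without MYC knockdown replicate 1. MAP1B, a microtubule-binding protein, had −0.47 (limma adjusted p = 0.533), with 1.29 and 4.41 FPKM in the knockdown and 3.80 and 3.97 FPKM in wild type, and 0.15 without MYC knockdown replicate 1. LIMK1, the kinase that inactivates cofilin, was higher by 0.47 (limma adjusted p = 0.0665), and GSK3B, a kinase inhibited below PI3 kinase and AKT, was at −0.44 (limma adjusted p = 0.0938).

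Among 15 genes described as regulators of RELN, 12 passed the filter, 1 of them, SNAI1, through the wild-type libraries alone. Of the other 11, 1 was higher and 4 were lower with no overlap, against 33.4% and 25.2% of all genes tested, and the median log2 change was −0.02, against 0.04. SNAI1, a repressor of epithelial genes reported to silence RELN, stood at 0.23 and 0.16 FPKM in the knockdown and 1.28 and 1.29 FPKM in wild type. DNMT3B, a de novo DNA methyltransferase, stood at 3.56 and 3.28 FPKM in the knockdown and 5.59 and 5.41 FPKM in wild type, a log2 change of −0.56 (limma adjusted p = 0.0914). DNMT1, the maintenance methyltransferase, had −0.12 (limma adjusted p = 0.575). It was −0.27 without MYC knockdown replicate 1 and 0.03 without MYC knockdown replicate 2. SP1, which binds GC boxes, had 0.03 (limma adjusted p = 0.893), or 0.14 without MYC knockdown replicate 1 and −0.08 without MYC knockdown replicate 2. CREB1, a cAMP-responsive factor, had −0.46 (limma adjusted p = 0.107), and none of the 12 passed 0.05. DNA methylation was not measured.

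**Figure D5:**
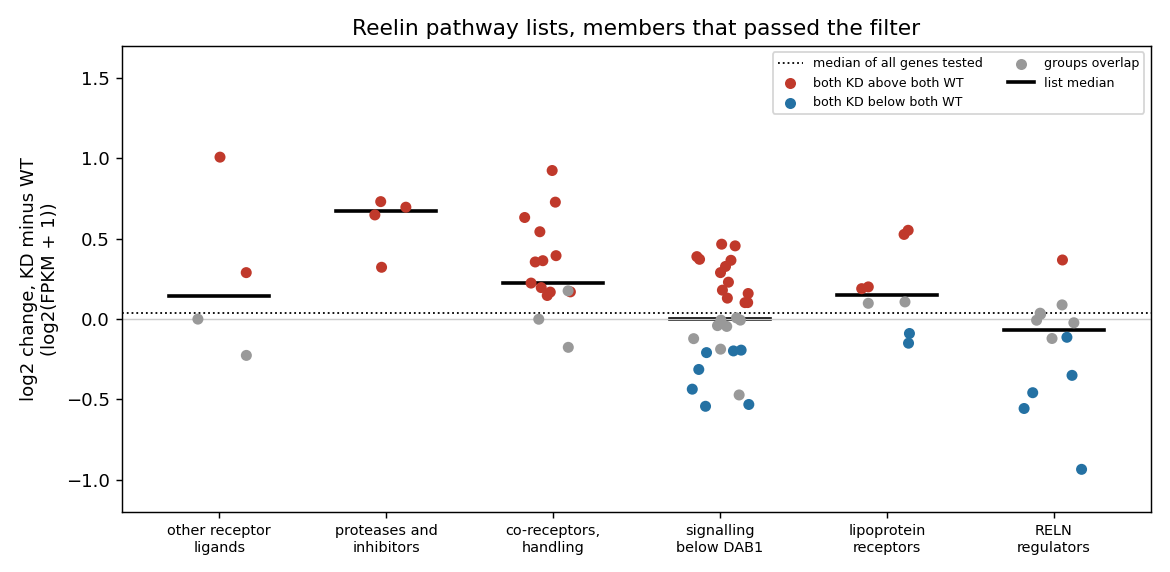
Log2 change, MYC knockdown (KD) minus wild type (WT) on the log2(FPKM + 1) scale, of the members that passed the filter in 6 lists around RELN; points are genes, coloured by whether both knockdown values lie above (red) or below (blue) both wild-type values, bars are list medians and the dotted line is the median of all genes tested. The bars lie at 0.14, 0.67, 0.22, 0.0001, 0.15 and −0.07 from left to right, the last with SNAI1 included, against 0.04 over all genes tested.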

How the data were processed

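RNA of 4 NUGC3 libraries (2 MYC knockdown, 2 wild type, grouped by sample title) was measured by RNA sequencing. Trizol was used to extract total RNA before a standard Illumina library protocol, per the labels. STAR and RSEM are named in the submitters' processing notes, without versions, build or annotation. The deposited values are read as FPKM, rounded to 2 decimals, because column totals vary (674328 to 739335). Of 344810 entries, the 53777 Ensembl genes were used.

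The 12953 genes reaching 1 FPKM in 2 or more libraries entered a fit on log2(FPKM + 1), which understates changes of low genes, with limma 3.58.1 (mean trend) in R 4.3.3, Benjamini-Hochberg adjustment over all of them and a threshold of 0.05. The fit was also run on simulated data with equal spread in both groups. The median log2 SD here was 0.14 in the knockdown and 0.05 in wild type, so that run does not give the error rate of the fit here. Log2 changes are knockdown minus wild type. Without read counts, no count test or counting interval is given. Steps in low values of genes with 1 transcript, shortened by 290 bases, gave the depths. Promoters are from RefSeq, with 3 of 4 genes having 1 window. The members, the lists and the tests were chosen with earlier results of these data known; named list genes were the 3 with the largest log2 change in each list, and others named beside them (GSK3B, LIMK1, SRC, ITGA3, MYLIP, FURIN, DNMT1, SP1, OMA1, the neuronal markers) were chosen after their values were seen. Some listed genes are not reported here and were left out of the list counts and medians; of the 125 remaining names, PECAM1 was not matched. Alternatives were filters, the constant, a replicate block, each library left out, scalings, protein-coding rows alone and a threshold of 0.10.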

Additional observations from a re-analysis of the deposited data

How the results depend on the processing

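RELN ranged from −2.74 (constant of 0.1) to −1.92 over the 12 alternatives, and from −2.50 to −1.92 with 1 library left out. The filters, the replicate block and protein-coding rows alone cannot change its difference of group means, which stayed at −2.21 there. RELN was chosen for this fall, so its range is a description. VLDLR moved to −0.050 with the constant of 0.1 and ranged from −0.0206 to 0.0068 with 1 library left out; DAB1 was 0 throughout. Both have no value under quantile normalization, the replicate block, protein-coding rows alone or a mean of at least 5 FPKM, and DAB1 none without a filter. LRP8 ranged from −0.34 to −0.16 (−0.34 to −0.17 with 1 library left out). It did not pass 0.05 in any alternative that kept all 4 libraries. MYC ranged from −0.34 to −0.12 and did not pass in those alternatives either. Whether equal replicate numbers mark paired cultures is not recorded. The deviations of equally numbered libraries had a correlation of −0.0059 over genes, which cannot settle it. With the replicate block LRP8 stayed at −0.25 (limma adjusted p = 0.317) and limma called 0 genes.

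Over all genes, limma called 0 at 0.05, against 310 with a mean of at least 5 FPKM, 308 with the median of ratios, 385 with protein-coding rows alone and 1349 at an adjusted p under 0.10, and between 0 and 3413 with 1 library left out. The cause was not tested.

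List medians moved by more than the replicate SD as follows. With equal column sums the median over all genes was 0.12 in place of 0.04. Co-receptors and handling were then at 0.31, signalling at or below DAB1 at 0.091 and lipoprotein receptors at 0.24. RELN regulators were at 0.021, on the other side of 0. With the median of ratios co-receptors were at 0.18 and signalling at −0.045, and with quantile normalization signalling was at 0.032. With a mean of at least 5 FPKM other ligands were at 0.29, co-receptors at 0.29 and signalling at 0.055, and with a constant of 0.1 co-receptors were at 0.26. With 1 library left out, ranges are given for every list, also where a move was within the replicate SD. They were 0.11 to 0.39 for other ligands, 0.26 to 1.08 for proteases and inhibitors and 0.21 to 0.35 for co-receptors. Signalling had 0.015 to 0.089 and RELN regulators −0.14 to −0.056. Lipoprotein receptors had 0.095 to 0.20, within the replicate SD of their median throughout. With 2 libraries a group, the spread of the knockdown pair limits each comparison.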

Other observations

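Several markers of Cajal-Retzius neurons, the main source of reelin in the developing cortex, had measurable RNA in this stomach cancer line. CALB2, the calcium-binding protein calretinin, had 47.2 and 58.7 FPKM in the MYC knockdown and 70.3 and 69.6 FPKM in wild type, a log2 change of −0.40 that did not pass 0.05 (limma adjusted p = 0.141). LHX1, a homeobox factor, stood at 8.80 and 9.14 FPKM in the knockdown and 7.06 and 8.63 FPKM in wild type. Its log2 change was 0.18 (limma adjusted p = 0.445). TP73, a relative of p53, stood at 3.72 and 4.54 FPKM in the knockdown and 3.17 and 2.97 FPKM in wild type. Its log2 change was 0.33 (limma adjusted p = 0.249). LHX5 stood at 1.43 and 1.48 FPKM in the knockdown and 0.84 and 0.86 FPKM in wild type, and it passed the filter through the knockdown libraries alone. RBFOX3, the neuronal nuclear antigen NeuN, stood at 2.44 and 6.25 FPKM in the knockdown and 3.88 and 2.94 FPKM in wild type, and EOMES, a T-box factor, at 0.84 and 1.07 FPKM in the knockdown and 0.76 and 1.0 FPKM in wild type. Both overlapped between the groups. MAP2, a dendritic microtubule protein, stood at 0.42 and 0.97 FPKM in the knockdown and 0.12 and 0.32 FPKM in wild type, and SYP, a synaptic vesicle protein, at 0.27 and 0.41 FPKM in the knockdown and 0.31 and 0.51 FPKM in wild type. TBR1 and SNAP25, from the same list of markers of Cajal-Retzius and other neurons, were at or below 0.14 FPKM in all 4 libraries. Without LHX5, 5 markers of the list passed the filter. Of these, 2 were higher and 1, CALB2, was lower with no overlap, against 33.4% and 25.2% of all genes tested. These genes are also known outside neurons, and their relation to RELN was not tested.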
